A study of Homo sapiens with 22 samples.

Results

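The genes described here are 53 human genes of DNA replication and S phase, taken by symbol from the 20411 genes of each RNA-seq table, and all 53 were found in both tables. The list was drawn up from the known roles of the genes and not from their response, and it was fixed with earlier results of these data known. RNA-seq was performed on 2 acute myeloid leukemia cell lines, MOLM-13 and NB4, incubated for 48 hours with 2 μM FP54 or with its vehicle DMSO. FP54 is a proteolysis-targeting chimera that recruits the VHL ubiquitin ligase to FTO, a demethylase of N6-methyladenosine in RNA. There were 3 libraries of each treatment in each line, 12 in all. The cells of both treatments were of wild-type genotype only in the sense that no engineered change is described for them. The lines are not free of leukemia lesions, since MOLM-13 is KMT2A-rearranged. Each line is an established culture from 1 patient, so the libraries are repeats within a line. The labels do not say whether the replicates were separate cultures, and p-values measure the spread between these libraries, which may be technical. Because FP54 acts on the FTO protein, FTO mRNA does not check its action, and no protein was measured in these tables.

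DNA replication starts from origins that are licensed in G1. The origin recognition complex, with CDC6 and CDT1, loads the ring-shaped MCM2-7 helicase onto DNA, and CDC45 and the GINS complex join it to form the active helicase in S phase. Polymerase alpha with primase lays down primers, polymerases delta and epsilon extend them on the sliding clamp PCNA, and FEN1 and LIG1 finish the lagging strand. Many of these genes are transcribed at the G1/S boundary by E2F factors, which bind short GC-rich sites close to the start of transcription.

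The promoters of the members that were called lower with FP54 in both cell lines are shown, and E2F motifs were looked for in them. Promoters from 250 bases before to 50 bases after the start were taken from RefSeq (GRCh38.p14) for 45 of the 53 genes. MCM4, MCM5, GINS4, POLD3, RPA2, RPA3, DSCC1 and WDR76 had no entry. An E2F motif was any of TTTCCCGC, TTTGGCGC, TTTCGCGC and TTTGCCGC on either strand, a CCAAT box was CCAAT on either strand, and the cell cycle homology region (CHR) of late cell cycle genes was TTTGAA on either strand. Each line below gives the 150 bases that end just before the start, 5′ to 3′ on the strand of the gene, with complete E2F motifs and CCAAT boxes in capitals. LIG1, whose level did not pass the test in either line, is given for contrast. UHRF1 and MCM7 have 3 promoters listed each, and the one with most E2F motifs is printed.
UHRF1 promoter, chr19:4909351-4909500, plus strand: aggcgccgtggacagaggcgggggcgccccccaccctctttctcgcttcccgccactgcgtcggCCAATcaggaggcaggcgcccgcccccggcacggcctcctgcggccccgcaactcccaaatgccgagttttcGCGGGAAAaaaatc
CDCA7 promoter, chr2:173354722-173354871, plus strand: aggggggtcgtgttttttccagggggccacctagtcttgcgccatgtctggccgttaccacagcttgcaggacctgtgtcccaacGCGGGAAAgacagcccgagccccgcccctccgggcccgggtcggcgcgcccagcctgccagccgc
MCM7 promoter, chr7:100101398-100101547, minus strand: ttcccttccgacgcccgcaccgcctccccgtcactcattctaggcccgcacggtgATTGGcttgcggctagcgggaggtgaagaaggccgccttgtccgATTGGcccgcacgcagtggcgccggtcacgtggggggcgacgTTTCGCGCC
MCM10 promoter, chr10:13161408-13161557, plus strand: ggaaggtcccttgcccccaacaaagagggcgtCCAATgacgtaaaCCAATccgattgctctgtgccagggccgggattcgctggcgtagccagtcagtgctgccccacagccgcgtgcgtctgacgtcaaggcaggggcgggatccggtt
POLD2 promoter, chr7:44123549-44123698, minus strand: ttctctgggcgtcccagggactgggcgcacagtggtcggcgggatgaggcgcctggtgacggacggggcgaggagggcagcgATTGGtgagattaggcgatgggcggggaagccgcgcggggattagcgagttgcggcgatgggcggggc
LIG1 promoter, chr19:48170345-48170494, minus strand: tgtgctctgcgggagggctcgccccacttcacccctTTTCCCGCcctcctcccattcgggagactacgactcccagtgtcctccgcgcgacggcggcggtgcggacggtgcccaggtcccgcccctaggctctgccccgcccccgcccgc

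In the stretches printed, UHRF1 has an E2F motif whose first base lies 14 bases before the start, CDCA7 has it at 65, MCM7 at 9 and LIG1 at 114. MCM10 and POLD2 have CCAAT boxes and no E2F motif in these letters. The last capitals of MCM7 join the E2F motif to the first bases of a CCAAT box that runs across the start. Over the whole window, an E2F motif was found in 23 of the 45 genes (51.1%), against 7.26% of the 7311 genes with a promoter entry that were tested in both lines. The 23 were MCM2, MCM3, MCM6, MCM7, CDC6, CDT1, GINS1, GINS2, GINS3, PCNA, RFC3, POLA1, POLA2, POLE, POLE2, LIG1, TYMS, DUT, UNG, CLSPN, TIPIN, UHRF1 and CDCA7. A CCAAT box was found in 62.2% of the 45 genes and in 43.9% of all genes, and a CHR in 8.89% and 13.4%. These are matches of letters, not binding sites.

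**Figure D1:**
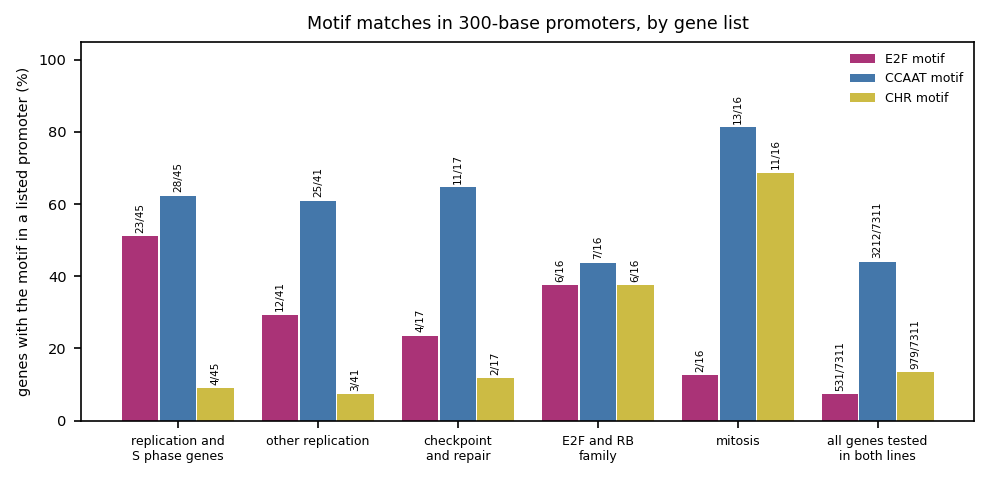
Share of genes (%) with an E2F, CCAAT or CHR motif in a listed promoter of 300 bases, with counts over the bars, for the replication and S phase genes, 4 other gene lists and all genes tested in both lines. The E2F motif is in 23 of 45 replication and S phase genes and in 2 of 16 mitosis genes, while the CHR is in 4 of 45 and in 11 of 16.

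Levels are given in RPKM, reads scaled by gene length and by the library total. Changes are log2 fold changes of FP54 against DMSO, fitted by limma to log2(RPKM + 0.1), and they understate the change of weakly expressed genes. A gene was called lower or higher where p was below 0.01 and the change reached 0.5 on the log2 scale. Adjusted p-values are by the Benjamini-Hochberg method over all genes tested in that cell line. Genes with a mean of at least 1 RPKM were tested, which kept 52 of the 53 for MOLM-13 and all 53 for NB4. POLA2 fell below the minimum in MOLM-13 cells, at 0.912, 0.353 and 0.953 RPKM with DMSO and 0.505, 0.585 and 0.612 RPKM with FP54. Levels of DMSO cells ran from 2.19 RPKM (GINS3) to 341 RPKM (PCNA) in MOLM-13 cells and from 3.52 RPKM (POLA2) to 370 RPKM (PCNA) in NB4 cells, among the genes tested.

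FP54 lowered 10 of 52 genes in MOLM-13 and 10 of 53 in NB4 cells, and 0 were called higher in either line, by limma or by limma-voom. At an unadjusted p below 0.05 with no minimum fold, 30 members were lower and 0 higher in MOLM-13 cells (17.4% and 17.6% of all genes). In NB4 cells 32 were lower and 3 higher (CDT1, RRM2 and TK1), against 24.7% and 33.3% of all genes. In MOLM-13 cells 9.04% of all 9710 genes tested were called lower and 9.3% higher, so 19.2% of the members against 9.04% of all genes were lower. In NB4 cells 10.7% of all 9853 genes were called lower and 18.6% higher, against 18.9% of the members lower. The 10 in MOLM-13 cells were UHRF1, CDCA7, MCM10, POLD2, WDR76, TIPIN, MCM4, PCNA, MCM2 and MCM7. The 10 in NB4 cells were MCM7, FEN1, RFC3, MCM5, MCM10, UHRF1, CDCA7, POLA2, GINS3 and POLD2. UHRF1, CDCA7, MCM7, MCM10 and POLD2 were called in both, 5 of 52 genes, where 3.2% of the 8849 genes tested in both lines were.

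The median change of the members was -0.47 in MOLM-13 cells (all genes 0.00) and -0.31 in NB4 cells (all genes 0.07). The fitted change was below 0 for 41 of 52 genes in MOLM-13 cells (49.7% of all genes) and above 0 for 11 (50.3%). In NB4 cells it was below 0 for 43 of 53 (44.2%) and above 0 for 10 (55.8%). It was below 0 in both lines for 37 of 52, against 32.1% of all genes. At an adjusted p below 0.05 with no minimum fold, 11 genes were lower and 0 higher in MOLM-13 cells (background 9.32% and 9.84%), by limma. In NB4 cells, 30 were lower and 2 higher by that rule (background 22% and 29.8%). All 3 FP54 libraries lay below all 3 DMSO libraries for 16 of 52 genes in MOLM-13 cells (17% of all genes) and for 31 of 53 in NB4 cells (26.2% of all genes). The reverse order was seen for 1 gene in MOLM-13 cells, PRIM2 (20.2% of all genes), and for 3 in NB4 cells, PRIM1, RRM2 and TK1 (34.3%). In both lines, FP54 lay below DMSO without overlap for 10 of 52 genes (8.17% of all genes). Across the 52 genes, the changes of the 2 lines had a Pearson r of 0.63 and a Spearman rho of 0.64, against 0.44 and 0.49 across all 8849 genes. Genes are not independent replicates, and the points of a line share its 6 libraries.

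**Figure D2:**
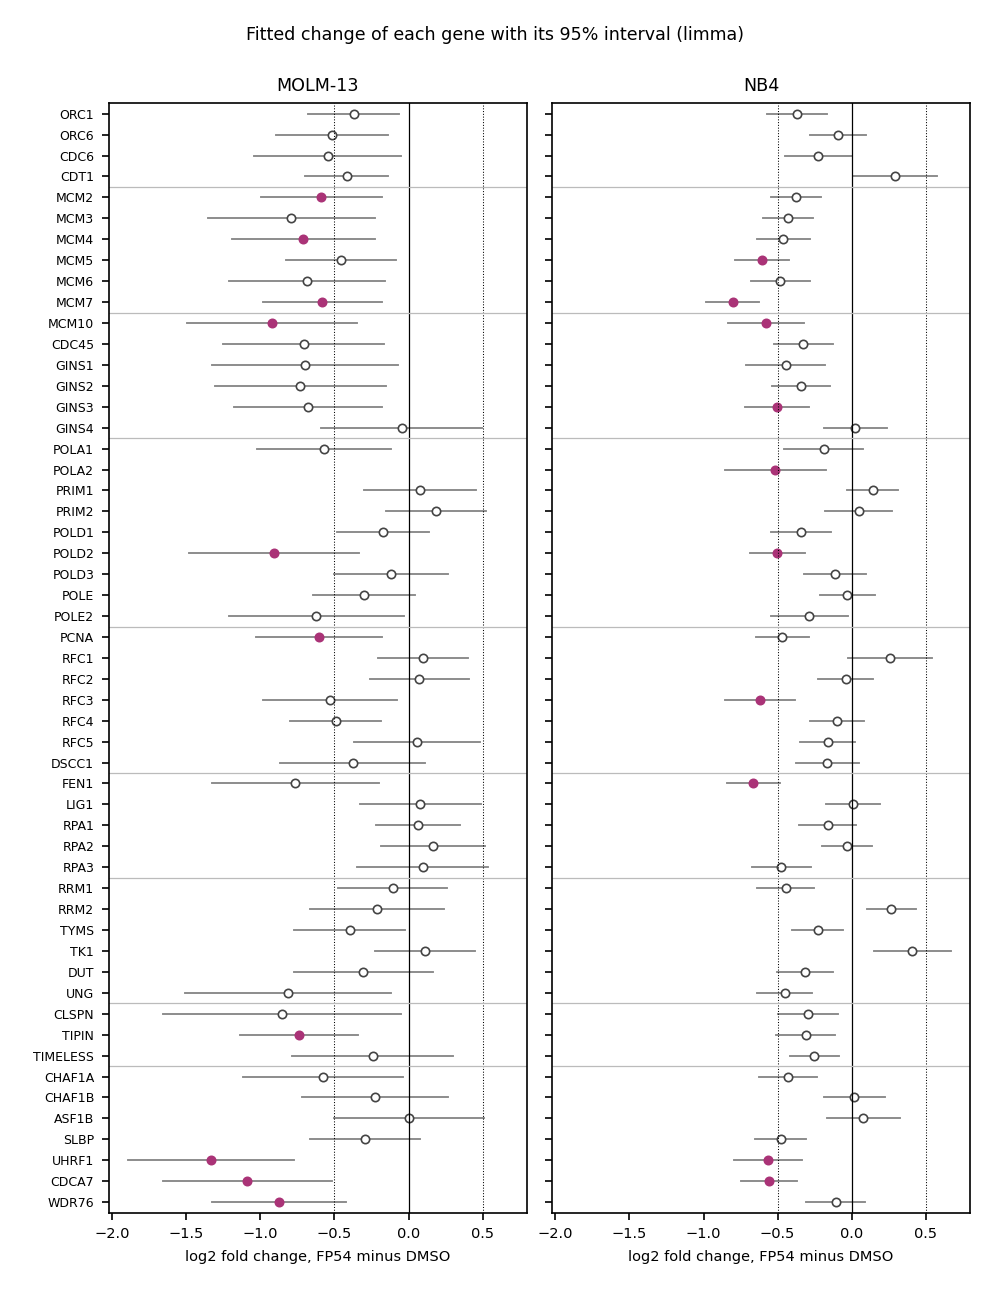
Fitted log2 fold change of FP54 against DMSO (x axis) for each gene (y axis, by role) in MOLM-13 (left) and NB4 cells (right), with 95% intervals; filled points were called and dotted lines mark the minimum fold change. All 10 called genes of each line lie left of 0, and the intervals are wider in MOLM-13 cells (median SE 0.20) than in NB4 cells (median SE 0.09).

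The libraries of MOLM-13 cells were less alike than those of NB4 cells. The members' median coefficient of variation was 16.9% with DMSO and 22.1% with FP54 in MOLM-13 cells, and 7.42% and 3.88% in NB4 cells. In MOLM-13 cells, the median difference of the members from their DMSO mean was 0.14, -0.27 and 0.13 on the log2 scale in DMSO replicates 1 to 3 and -0.75, -0.34 and -0.26 in FP54 replicates 1 to 3. FP54 replicate 1 held the lowest of the 6 values for 36 of 52 genes, where it did so for 21.1% of all genes. DMSO replicate 2 was the lowest DMSO library for 46 of 52 genes, where it was so for 47.2% of all genes. The NB4 libraries lay between -0.03 and 0.04 with DMSO and between -0.32 and -0.29 with FP54. Without MOLM-13 FP54 replicate 1 the median change was -0.38 and 4 genes were called lower, and without DMSO replicate 2 it was -0.59 and 20 were called. Leaving out DMSO replicate 1 or DMSO replicate 3 left 3 calls each. The shares of all genes called in these fits are not given here. UHRF1, CDCA7 and WDR76 were called in MOLM-13 cells whichever library was left out. The other 7 were lost without 2 to 4 of the 6 libraries, DMSO replicates 1 and 3 among them for each gene. Without a filter on low values TIPIN was the only call left in MOLM-13 cells, and MCM2, MCM4, MCM7 and PCNA were also lost with quantile normalization.

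In NB4 cells MCM7, MCM5, MCM10, FEN1, RFC3 and CDCA7 were called whichever library was left out. UHRF1 was lost without FP54 replicate 3, GINS3 without DMSO replicate 1 or FP54 replicate 1, and POLD2 without DMSO replicate 2, FP54 replicate 1 or FP54 replicate 3. POLA2 was kept only without DMSO replicate 1 or without DMSO replicate 3. Quantile normalization ended the NB4 calls of CDCA7, POLD2, FEN1 and UHRF1. The depth ranged from 5826988 to 19178246 reads on genes in MOLM-13 cells. The NB4 totals ranged from 20655316 to 22342366 with DMSO and from 10598965 to 13075058 with FP54. The weakest member value rested on 28 reads (POLE2 in a MOLM-13 library) and on 175 reads (ASF1B) in NB4 cells. Olfactory receptor genes, whose products serve olfactory neurons, had a mean of 0.0017 to 0.0037 RPKM with DMSO and 0.050 to 0.055 RPKM with FP54 in NB4 cells, and of 0.0039 to 0.0084 RPKM in MOLM-13 cells. Subtracting it from every gene left 10 calls in each line. With median-ratio scaling in place of the deposited one, 27 members were called lower in NB4 cells, and the median of all NB4 genes moved from 0.07 to -0.13. Relative to all genes, the members' NB4 median was -0.38 with either scaling. The share of all genes called lower with median-ratio scaling is not given here.

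Myeloid markers were present in both lines. SPI1 lay between 70.8 and 95.5 RPKM with DMSO and between 59.2 and 62.9 RPKM with FP54 in NB4 cells. CEBPA lay between 36.9 and 41.3 RPKM and between 31.4 and 35.4 RPKM there. AZU1 lay between 8.91 and 11.7 RPKM and between 6.70 and 7.04 RPKM there. In MOLM-13 cells the SPI1 groups overlapped, at 141 to 163 RPKM and 160 to 185 RPKM, as did those of CEBPA and AZU1. The CD33, LYZ and ELANE groups overlapped in both lines. ELANE was at most 0.218 RPKM in NB4 cells. MPO, the granule enzyme myeloperoxidase, lay between 2036 and 2263 RPKM with DMSO and between 1082 and 1149 RPKM with FP54 in NB4 cells, and between 12.8 and 18.1 RPKM and between 3.29 and 4.64 RPKM in MOLM-13 cells. PRTN3, a granule protease, lay between 55.2 and 69.0 RPKM with DMSO and between 14.7 and 16.9 RPKM with FP54 in NB4 cells, and its MOLM-13 groups overlapped. CSF3R went the other way in both lines. It lay between 3.73 and 4.46 RPKM with DMSO and between 6.57 and 7.18 RPKM with FP54 in NB4 cells. In MOLM-13 cells it lay between 30.3 and 33.6 RPKM and between 43.9 and 53.4 RPKM. The 9 myeloid markers together summed to 2263 to 2532 RPKM with DMSO and 1243 to 1315 RPKM with FP54 in NB4 cells, a sum mostly of MPO. The sums in MOLM-13 cells overlapped, at 1405 to 1784 RPKM and 1422 to 2110 RPKM. Of 4 markers of KMT2A-rearranged cells such as MOLM-13, HOXA9 and MEIS1 were at 6.05 RPKM or more in MOLM-13 and at most 0.716 RPKM in NB4 cells. FLT3 was at 51.1 RPKM or more in MOLM-13 and at most 6.04 RPKM in NB4 cells, whereas HOXA10 did not tell the lines apart in that way, at 6.64 to 9.76 RPKM in MOLM-13 and 11.3 to 14.1 RPKM in NB4 cells. Of 8 markers of other cells, CD3D and EPCAM exceeded 1 RPKM, in NB4 cells only, and HBB and PPBP were at 0 in every DMSO library. CD3D lay between 5.995 and 6.95 RPKM with DMSO and between 10.1 and 10.5 RPKM with FP54, and EPCAM between 7.83 and 8.58 RPKM and between 8.23 and 11.3 RPKM. The part of these markers in the changes of the replication genes was not tested. In bulk RNA, fewer cells in S phase and less RNA of these genes per cell cannot be told apart.

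**Figure D3:**
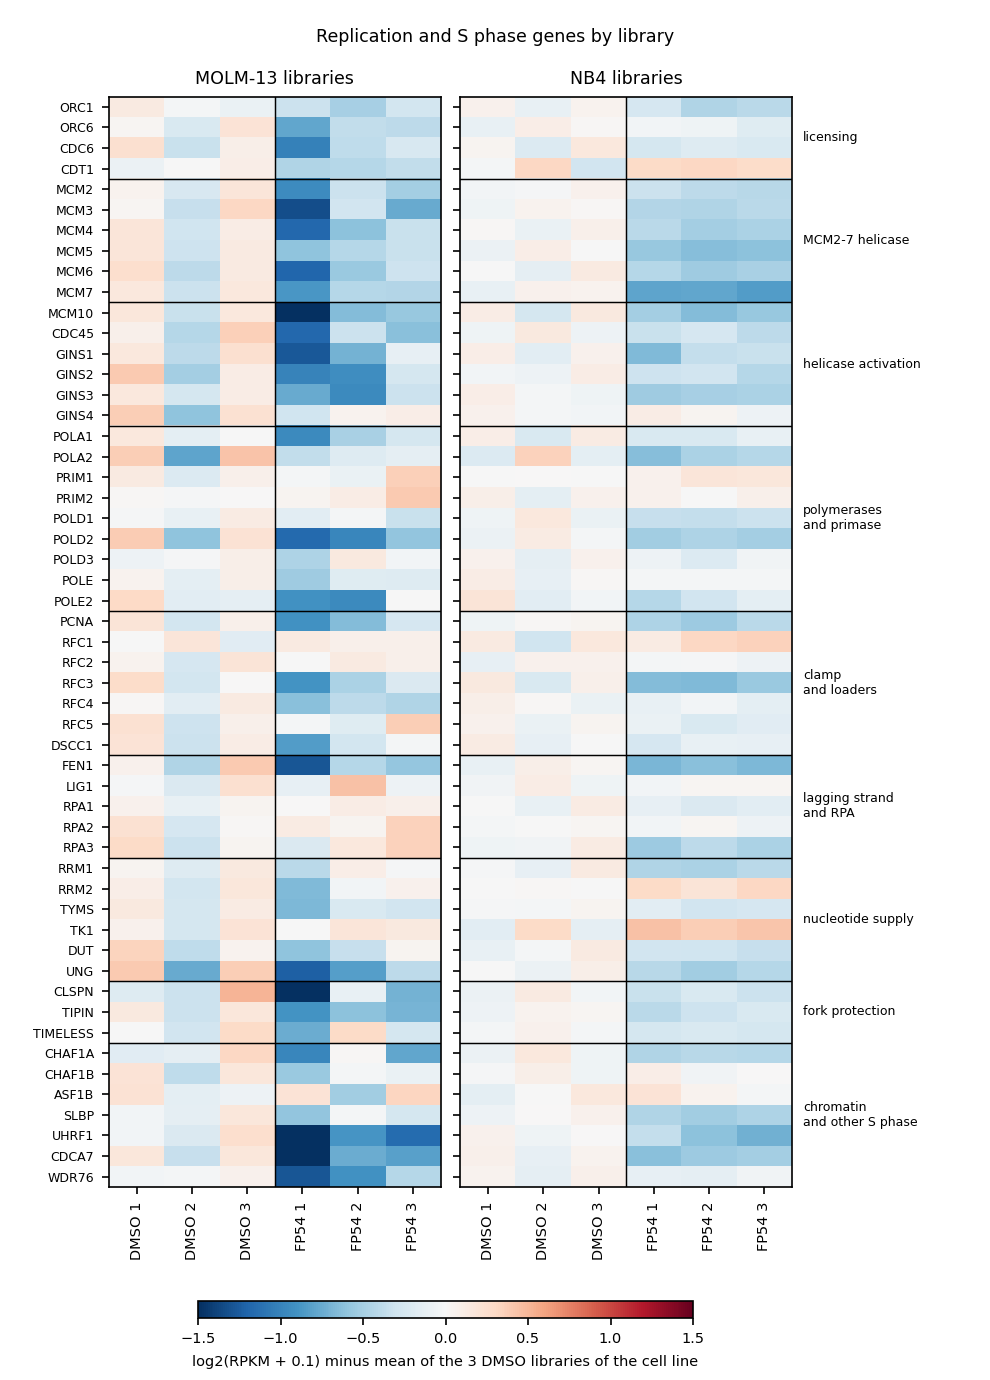
Level of each gene (rows, by role) in each library (columns), as log2(RPKM + 0.1) minus the mean of the 3 DMSO libraries of the line; colours saturate at 1.5 in either direction. FP54 replicate 1 is the darkest column of MOLM-13 cells (median -0.75), and the 3 FP54 columns of NB4 cells are alike (-0.31, -0.29 and -0.32).

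The licensing genes were ORC1 and ORC6 of the origin recognition complex, CDC6, which recruits the helicase loader, and CDT1, which brings MCM2-7. None of the 4 was called in either line, with median changes of -0.47 in MOLM-13 and -0.16 in NB4 cells. CDC6 had the largest fitted decrease in MOLM-13 cells, with DMSO values of 18.5, 12.4 and 16.7 RPKM and FP54 values of 7.69, 12.05 and 13.2 RPKM. Those groups overlapped, and the change of -0.55 (SE 0.22) had an adjusted p of 0.11 by limma. ORC1 read 20.6, 18.5 and 17.5 RPKM with DMSO and 15.0, 13.2 and 15.5 RPKM with FP54 in MOLM-13 cells. In NB4 cells it read 23.8, 21.0 and 23.7 RPKM and 19.1, 16.6 and 17.2 RPKM. The treatments did not overlap in either line, with changes of -0.37 in both and limma-adjusted p-values of 0.0871 and 0.00649.

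CDT1 differed between the lines. In MOLM-13 cells its levels were 30.4, 32.0 and 34.4 RPKM with DMSO and 23.5, 23.9 and 25.0 RPKM with FP54, a change of -0.42 (SE 0.13, adjusted p = 0.0444, limma) that lay short of the minimum fold. NB4 cells had 60.7, 76.7 and 50.9 RPKM with DMSO and 75.5, 77.1 and 74.8 RPKM with FP54, a change of 0.29 (SE 0.13, adjusted p = 0.0792). That NB4 change was 0.15 without DMSO replicate 3, 0.45 without DMSO replicate 2 (adjusted p = 0.00078), 0.092 with median-ratio scaling and 0.45 with quantile normalization (adjusted p = 0.00622). The MOLM-13 groups were apart, while the NB4 groups overlapped through DMSO replicate 2. The change in NB4 minus that in MOLM-13 cells was 0.71 (95% interval 0.32 to 1.0997, adjusted p = 0.0179 in 1 limma model of the 12 libraries). It was 0.53 with median-ratio scaling (adjusted p = 0.0779) and had an adjusted p of 0.0506 without NB4 FP54 replicate 2.

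All 6 subunits of the MCM2-7 helicase, the motor that unwinds DNA at the fork, had a change below 0 in both lines, with medians of -0.64 in MOLM-13 and -0.47 in NB4 cells. MCM2, MCM4 and MCM7 were called lower in MOLM-13 cells, and MCM5 and MCM7 in NB4 cells. In NB4 cells all 6 passed an adjusted p below 0.05 and had no overlap between the treatments. By these rules 22% and 26.2% of all genes were lower there. In MOLM-13 cells 3 of the 6 passed that adjusted p (MCM2, MCM4 and MCM7), and those and MCM5 had no overlap. The shares of all genes lower by the same rules were 9.32% and 17% in that line. MCM7 was lower in both lines. Its MOLM-13 levels were 73.0, 52.4 and 73.2 RPKM with DMSO and 35.5, 48.6 and 48.3 RPKM with FP54, a change of -0.58 (SE 0.18, adjusted p = 0.0478, limma). In NB4 cells, 191, 215 and 214 RPKM with DMSO stood against 119, 121 and 115 RPKM with FP54, a change of -0.80 (SE 0.08, adjusted p = 2.37e-05). This was the largest decrease of any member in NB4 cells, and FP54 left 57.2% of the DMSO mean. MCM7 overlaps AP4M1 on the opposite strand, and the strand setting of the counting is not given in the sources used here.

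MCM3 had the largest fitted decrease of the 6 subunits in MOLM-13 cells but was not called, with 125, 96.7 and 152 RPKM against 48.5, 101 and 72.7 RPKM. FP54 replicate 2 lay above DMSO replicate 2, and the change was -0.79 (SE 0.25, adjusted p = 0.0532, limma). MCM5 had the smallest, from 19.0, 13.5 and 18.4 RPKM to 11.01, 12.4 and 13.3 RPKM. These 2 groups were apart by a narrow margin, and the change was -0.45 (adjusted p = 0.0818). In NB4 cells MCM5 was called, falling from 33.5 ± 2.13 RPKM to 22.0 ± 0.556 RPKM (SD, n = 3 each), and MCM2 had the smallest change of the 6, with 95.01, 96.7 and 102 RPKM against 78.4, 74.4 and 73.3 RPKM. The MCM2 groups did not overlap, and the change of -0.38 (adjusted p = 0.00207) missed the minimum fold.

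Among the genes that activate the helicase, MCM10 was lower in both lines, and GINS3 was lower in NB4 cells. MCM10 acts when origins fire, CDC45 is part of the active helicase, and GINS1 to GINS4 form the complex that binds it. The median change of the 6 genes was -0.70 in MOLM-13 and -0.39 in NB4 cells. MCM10 levels in MOLM-13 cells were 10.4, 7.28 and 10.3 RPKM with DMSO and 3.11, 5.85 and 6.17 RPKM with FP54. In NB4 cells they were 18.2, 14.05 and 18.7 RPKM and 11.8, 10.7 and 11.3 RPKM. Neither pair of groups overlapped, with changes of -0.92 (SE 0.26, adjusted p = 0.0342) and -0.58 (SE 0.12, adjusted p = 0.00199) by limma.

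GINS4 had the smallest fitted change of the GINS subunits in both lines, though the subunits were not tested against each other. Its MOLM-13 levels were 10.7, 5.40 and 9.69 RPKM with DMSO and 6.70, 8.57 and 8.87 RPKM with FP54. The NB4 levels were 7.06, 6.63 and 6.58 RPKM and 7.33, 6.93 and 6.38 RPKM. The groups overlapped in both lines, and the intervals of the change were -0.59 to 0.49 and -0.19 to 0.24. GINS1, GINS2 and GINS3 ranged from -0.73 to -0.68 in MOLM-13 cells, none of them called, and from -0.50 to -0.34 in NB4 cells. All 3 passed an adjusted p below 0.05 in NB4 cells, where 22% of all genes were lower by that rule. CDC45 read 61.3% of its DMSO mean in MOLM-13 cells (adjusted p = 0.0669) and 79.6% in NB4 cells (adjusted p = 0.0109).

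The polymerase and primase genes differed among themselves. The median change was -0.24 for 8 genes in MOLM-13 cells and -0.19 for 9 in NB4 cells. POLD2, an accessory subunit of polymerase delta, was called lower in both lines. MOLM-13 cells held 9.97, 4.97 and 8.91 RPKM with DMSO and 3.35, 3.81 and 5.04 RPKM with FP54. NB4 cells held 28.0, 32.3 and 29.1 RPKM and 20.7, 21.5 and 20.8 RPKM. The MOLM-13 groups overlapped, since DMSO replicate 2 lay below FP54 replicate 3, and the NB4 groups were apart. The changes were -0.91 (SE 0.26, adjusted p = 0.0357) and -0.50 (SE 0.08, adjusted p = 0.000687) by limma. POLD1, the catalytic subunit, had changes of -0.18 and -0.34, and POLD3 of -0.12 and -0.11, none of them called.

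POLA2, the second subunit of polymerase alpha, was lower in NB4 cells, from 3.00, 4.44 and 3.12 RPKM to 2.19, 2.47 and 2.54 RPKM. The groups were apart, and the change was -0.52 (SE 0.15, adjusted p = 0.0171, limma). The primase subunits PRIM1 and PRIM2 had fitted changes above 0 in both lines, which in NB4 cells turned to -0.058 and -0.15 with median-ratio scaling. PRIM2 levels in MOLM-13 cells were 6.26, 6.10 and 6.23 RPKM with DMSO and 6.37, 6.71 and 8.19 RPKM with FP54. PRIM1 levels in NB4 cells were 25.6, 25.9 and 25.6 RPKM with DMSO and 26.9, 29.2 and 28.8 RPKM with FP54. In both cases each FP54 library was above each DMSO library, without passing the test (changes of 0.18 and 0.14, adjusted p-values of 0.417 and 0.153). POLE, the catalytic subunit of polymerase epsilon, had -0.30 in MOLM-13 and -0.03 in NB4 cells, and POLE2 had -0.62 and -0.29, all uncalled.

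PCNA, the sliding clamp, was the most abundant member in both lines. MOLM-13 cells had 388, 280 and 355 RPKM with DMSO and 180, 216 and 283 RPKM with FP54. The groups touched, as FP54 replicate 3 exceeded DMSO replicate 2, and PCNA was called at a change of -0.61 (SE 0.19) with a limma-adjusted p of 0.0508. In NB4 cells the change was -0.47 (SE 0.08, adjusted p = 0.000784), with 370 ± 14.2 against 268 ± 13.8 RPKM (SD, n = 3 each), short of the minimum fold. RFC3, of the clamp loader, was lower in NB4 cells, from 34.7, 26.7 and 32.9 RPKM to 19.9, 19.8 and 21.3 RPKM. These groups were apart, with a change of -0.62 (SE 0.11, adjusted p = 0.000717). RFC1, the large loader subunit, was at the other end of the group, with 27.6, 31.4 and 24.6 RPKM against 30.3, 29.2 and 29.3 RPKM in MOLM-13 cells. Its NB4 levels were 30.0, 22.1 and 30.5 RPKM against 29.6, 33.8 and 34.8 RPKM. Its groups overlapped in both lines, and the changes were 0.09 and 0.26. RFC4 changed by -0.49 in MOLM-13 cells (adjusted p = 0.0347), just short of the minimum fold, and by -0.10 in NB4 cells. RFC2, RFC5 and DSCC1, a subunit of the alternative loader that serves sister chromatid cohesion, were not called in either line.

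FEN1, the flap nuclease of the lagging strand, was called lower in NB4 cells. It read 98.02, 113 and 108 RPKM with DMSO and 66.1, 68.6 and 66.3 RPKM with FP54, which did not overlap, and the change was -0.66 (SE 0.08, adjusted p = 8.72e-05, limma). In MOLM-13 cells 50.4, 35.1 and 63.0 RPKM stood against 19.7, 35.7 and 32.1 RPKM. DMSO replicate 2 lay within the FP54 range there, and the change of -0.76 (SE 0.25) had an adjusted p of 0.0598. LIG1, the ligase that acts after FEN1, had 54.6, 61.0 and 53.9 RPKM against 55.0, 57.7 and 57.4 RPKM in NB4 cells. Its changes were 0.01 (95% interval -0.17 to 0.19) there and 0.08 (-0.33 to 0.49) in MOLM-13 cells, with overlapping groups. RPA1, RPA2 and RPA3 form the complex that coats single-stranded DNA. Their changes in MOLM-13 cells were 0.06, 0.17 and 0.09, of which the largest was RPA2, at 41.8, 30.0 and 36.1 RPKM against 38.8, 36.5 and 45.2 RPKM. RPA3 had a change of -0.47 in NB4 cells (adjusted p = 0.00142), where RPA1 and RPA2 had -0.16 and -0.03. RPA3 overlaps UMAD1, and RPA1 overlaps SMYD4, on the opposite strand. Among the called genes, FEN1 overlaps FADS2 and POLA2 an unnamed gene, both on the same strand. The uncalled GINS1, GINS2, PRIM1, POLD1, RFC4, RFC5, TYMS, UNG, CHAF1A and CHAF1B also overlap other genes on one strand or the other.

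None of the 6 genes grouped under nucleotide supply, with the repair enzyme UNG placed among them, met the full cutoff in either line. RRM1 and RRM2 are the large and small subunits of ribonucleotide reductase, TYMS makes thymidylate, TK1 salvages thymidine, DUT removes dUTP and UNG excises uracil from DNA. At an adjusted p below 0.05 with no minimum fold, 4 of these 6 were lower in NB4 cells (RRM1, TYMS, DUT and UNG) and 2 were higher (TK1 and RRM2), where 22% and 29.8% of all genes were. TK1 in NB4 cells read 19.3, 26.4 and 19.7 RPKM with DMSO and 29.4, 27.9 and 28.8 RPKM with FP54, a change of 0.41 (SE 0.12, adjusted p = 0.0144, limma). RRM2 read 42.6, 43.4 and 42.7 RPKM and 52.5, 49.1 and 53.4 RPKM, a change of 0.27 (SE 0.08, adjusted p = 0.0132). Neither gene had overlapping groups, and with median-ratio scaling the changes were 0.21 (adjusted p = 0.199) and 0.068 (adjusted p = 0.542). RRM1, its partner, had a change of -0.45 (adjusted p = 0.00173).

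In MOLM-13 cells TK1 had 37.8, 30.1 and 41.8 RPKM with DMSO and 36.2, 41.2 and 40.1 RPKM with FP54, which overlapped, and the change was 0.11. RRM2 had a change of -0.21 there (95% interval -0.66 to 0.24). UNG had the largest fitted decrease of this group in both lines. Its MOLM-13 levels were 9.56, 4.27 and 9.46 RPKM with DMSO and 3.06, 4.07 and 5.55 RPKM with FP54, and its NB4 levels were 33.5, 31.6 and 35.8 RPKM and 25.2, 23.5 and 24.9 RPKM. The MOLM-13 groups overlapped through DMSO replicate 2, and the changes were -0.81 (adjusted p = 0.0933) and -0.45 (adjusted p = 0.00121).

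CLSPN, TIPIN and TIMELESS encode the fork protection complex, which links the fork to checkpoint signalling. TIPIN was called lower in MOLM-13 cells, from 8.47, 6.07 and 8.59 RPKM to 4.03, 4.95 and 4.64 RPKM, with no overlap and a change of -0.74 (SE 0.18, adjusted p = 0.0201, limma). In NB4 cells it read 13.3, 14.5 and 14.3 RPKM against 10.6, 11.3 and 11.98 RPKM, a change of -0.31 (SE 0.09, adjusted p = 0.0137). CLSPN varied most in MOLM-13 cells, at 9.32, 8.53 and 15.3 RPKM with DMSO and 3.13, 9.85 and 6.48 RPKM with FP54. Its groups overlapped, and the change of -0.85 (SE 0.36) was not called. TIMELESS read 21.0, 17.3 and 25.7 RPKM against 12.5, 25.6 and 17.5 RPKM in MOLM-13 cells, which overlapped, and 58.0, 62.0 and 58.3 RPKM against 49.5, 50.6 and 49.4 RPKM in NB4 cells, which did not. Its changes were -0.24 and -0.25, with intervals of -0.79 to 0.30 and -0.42 to -0.09.

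The largest decreases of all members in MOLM-13 cells were those of UHRF1 and CDCA7, and both were also called in NB4 cells. UHRF1 binds hemimethylated DNA behind the fork and brings in the maintenance methyltransferase DNMT1, and CDCA7 acts with the remodeller HELLS in DNA methylation. UHRF1 levels in MOLM-13 cells were 27.4, 24.2 and 33.6 RPKM with DMSO and 7.14, 15.2 and 12.6 RPKM with FP54. Those in NB4 cells were 37.4, 34.0 and 35.7 RPKM and 27.8, 23.2 and 21.6 RPKM. No groups overlapped, and the changes were -1.33 (SE 0.25, adjusted p = 0.00845) and -0.56 (SE 0.10, adjusted p = 0.0011) by limma, so that 41% of the DMSO mean was left in MOLM-13 and 67.9% in NB4 cells. CDCA7 had 17.7, 12.4 and 17.8 RPKM against 4.76, 9.39 and 8.96 RPKM in MOLM-13 cells. It had 80.3, 70.1 and 79.1 RPKM against 49.3, 52.4 and 53.7 RPKM in NB4 cells. Again no groups overlapped, and the changes were -1.09 (SE 0.26, adjusted p = 0.0181) and -0.56 (SE 0.08, adjusted p = 0.000348).

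WDR76, a WD40 protein found at sites of DNA damage, was called in MOLM-13 cells only. Its levels there were 10.7, 10.8 and 11.5 RPKM with DMSO and 4.47, 5.80 and 8.12 RPKM with FP54, which were apart, and the change was -0.87 (SE 0.20, adjusted p = 0.0174, limma). In NB4 cells they were 17.4, 15.2 and 17.7 RPKM and 15.3, 15.2 and 16.1 RPKM, which overlapped, and the change was -0.11 (SE 0.09, adjusted p = 0.335). The difference between the lines was 0.77 (95% interval 0.27 to 1.26, adjusted p = 0.0405 by the interaction). The adjusted p was 0.0562 with no filter on low values, and 0.0844 with median-ratio scaling, where the difference was 0.59. With 1 library left out, it passed only without MOLM-13 DMSO replicate 2 or without MOLM-13 FP54 replicate 3, and otherwise the adjusted p lay between 0.06 and 0.0964.

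The histone chaperone genes were less uniform. ASF1B, which hands histones to the assembly factor CAF-1, had 5.03, 3.89 and 4.09 RPKM against 5.00, 2.98 and 5.39 RPKM in MOLM-13 cells. Its NB4 levels were 6.65, 7.33 and 8.25 RPKM against 8.53, 7.68 and 7.23 RPKM. Both pairs overlapped, and the intervals of the change were -0.50 to 0.51 and -0.17 to 0.32. The CAF-1 subunits CHAF1A and CHAF1B had changes of -0.58 and -0.23 in MOLM-13 cells and of -0.43 and 0.02 in NB4 cells, where CHAF1A had an adjusted p of 0.00224. SLBP, which binds the stem-loop of histone mRNAs, had -0.29 in MOLM-13 and -0.48 in NB4 cells (adjusted p = 0.000535), none of them called.

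**Figure D4:**
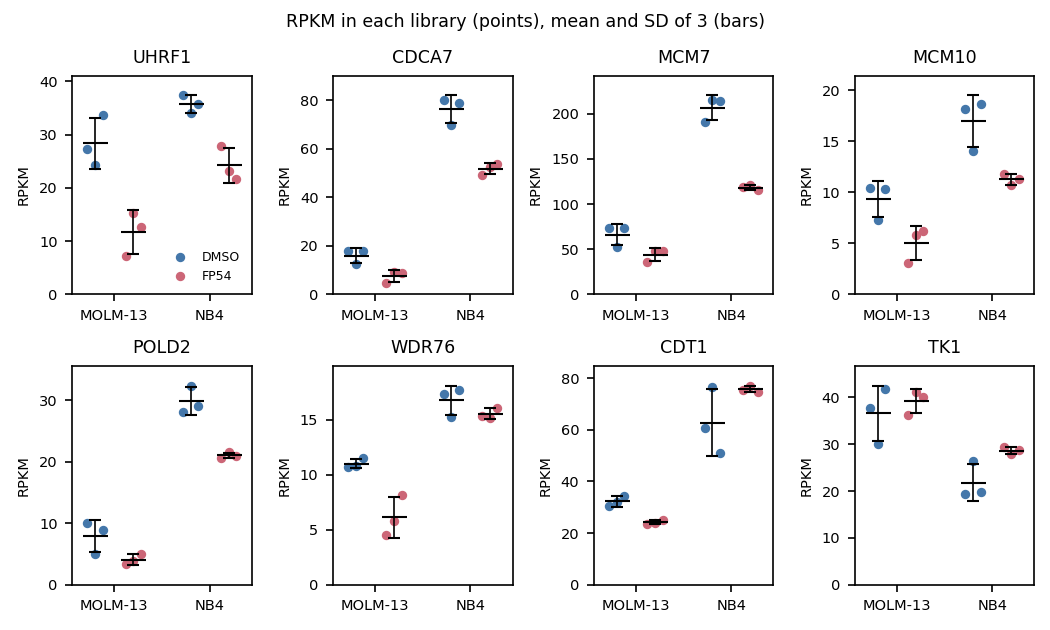
RPKM (y axis, from 0) of the 5 genes called lower in both lines, of WDR76 and CDT1, whose changes differed between the lines, and of TK1, in each library (points) with the mean and SD of 3 (bars); the lines were normalized separately, so levels are compared within a line only. UHRF1 goes from 28.4 to 11.6 RPKM in MOLM-13 cells and from 35.7 to 24.2 RPKM in NB4 cells, and TK1 in NB4 cells goes from 21.8 to 28.7 RPKM.

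CDT1 and WDR76 were the only members whose change differed between the lines at an adjusted p below 0.05, 2 of 52, both more negative in MOLM-13 cells, where 10.5% of the 8849 genes were so. None, 0 of 52, was more negative in NB4 cells, by limma or limma-voom, against 3.75% of all genes. An unadjusted p below 0.05 was reached by 7 members (13.5%) in limma's interaction. The other 5 were RFC4 (0.39), UHRF1 (0.77), ORC6 (0.42) and TIPIN (0.43), more negative in MOLM-13 cells, and RPA3 (-0.57), more negative in NB4 cells. The share of all genes at that unadjusted cutoff is not given here. Since 10.5% and 3.75% of all genes passed the stricter adjusted cutoff, the members did not exceed the background. For the remaining members, a call in 1 line and none in the other was not shown to be a difference between them.

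The changes of members with and without a listed E2F motif are given as a description, and a relation between motif and change was not tested. Called members with no promoter entry are left out, MCM4 and WDR76 in MOLM-13 and MCM5 in NB4 cells. In MOLM-13 cells, the 22 tested members with a motif had a median change of -0.61 and 6 calls, and the 22 without had -0.22 and 2 calls. The NB4 values were -0.38 and 6 calls for 23 genes with a motif and -0.16 and 3 calls for 22 without. Over all genes tested, the median was -0.01 with a motif and 0.00 without in MOLM-13 cells, and -0.01 and 0.07 in NB4 cells. LIG1, POLE and CDT1 are among the members with a motif that were called in neither line. MCM10 and POLD2 have none and were called in both.

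Other genes of the pathway were taken from lists that share no gene with the 53. Of 49 further replication genes tested in each line, 5 were called lower and 1 higher in MOLM-13 cells (median -0.28), and 7 lower and 2 higher in NB4 cells (median -0.15). The lower calls were 10.2% and 14.3% of the list, against 9.04% and 10.7% of all genes. CDC25A, a phosphatase that activates CDK2, fell by 1.29 on the log2 scale in MOLM-13 cells, from 5.44 to 2.22 RPKM (adjusted p = 0.0297, limma). CCNE1, the cyclin partner of CDK2 at the G1/S boundary, fell by 0.86 and DNMT1 by 0.72 there. In NB4 cells POLD4, the small subunit of polymerase delta, stood at 0.491 RPKM with DMSO and 1.59 RPKM with FP54. It passed the minimum of 1 RPKM only through the FP54 libraries, so its place among the higher calls was set by the change itself. POLE3 fell by 0.77 and GMNN, the inhibitor of CDT1, by 0.70 in those cells.

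Of the E2F and RB family, 5 of 16 tested genes were called lower in MOLM-13 cells (median -0.37), with E2F1 falling by 1.00, E2F4 by 0.89 and TFDP1 by 0.76 on the log2 scale. That is 31.2% of the list, against 9.04% of all genes. In NB4 cells 1 of 15 was lower (E2F4, by 0.52) and 1 higher (RB1, 0.59), with a median of -0.07, which is 6.67% in each direction against 10.7% and 18.6% of all genes. No checkpoint or repair gene of 23 was called in MOLM-13 cells by limma (median -0.08), nor did any have an adjusted p below 0.05. At an unadjusted p below 0.05, 4 of the 23 were lower and 1 higher, where 17.4% and 17.6% of all genes were. In NB4 cells ATRIP fell by 0.82 and HUS1 by 0.62, 2 of 24 (median 0.11), or 8.33% against 10.7% of all genes. Of 19 mitosis genes, 3 were called lower in MOLM-13 cells (CENPF, AURKA and TPX2, median -0.25) and 9 in NB4 cells (median -0.30), with KIF20A falling by 1.09, CCNB1 by 0.90 and AURKA by 0.75. The shares were 15.8% against 9.04% of all genes in MOLM-13 and 47.4% against 10.7% in NB4 cells.

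**Figure D5:**
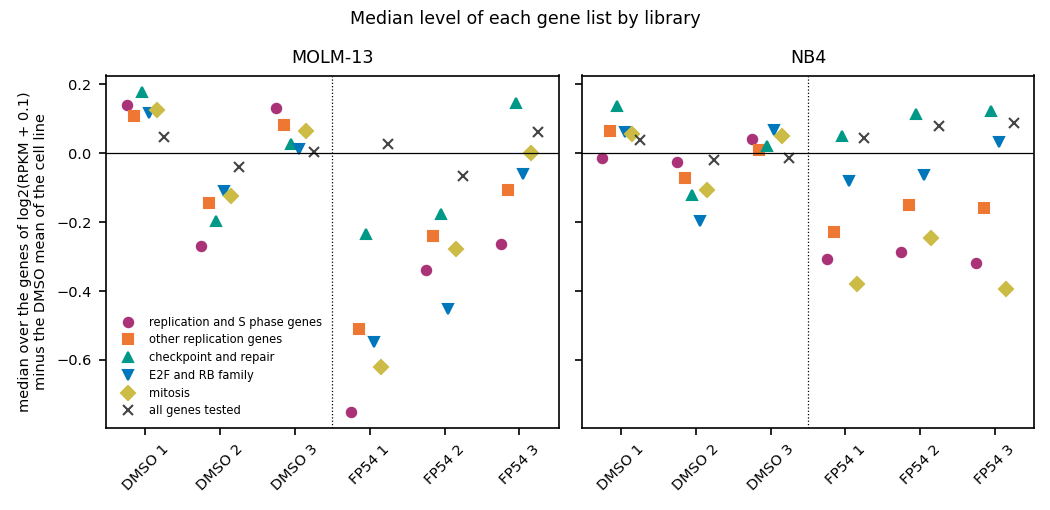
Median over each gene list of log2(RPKM + 0.1) minus the DMSO mean of the line (y axis) in each library (x axis). In MOLM-13 cells the mitosis list stands at -0.62 in FP54 replicate 1 and at 0.00 in FP54 replicate 3, where the replication and S phase genes stand at -0.75 and -0.26, and all genes tested stay close to 0.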

How the data were processed

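Poly(A) RNA of MOLM-13 and NB4 cells was sequenced from 3 DMSO and 3 FP54 libraries per line. Of 22 samples in the labels, these 12 were used, and the other 10 (m6A-seq and polysome-seq) were not analysed here. According to the methods and the submitters' processing notes, mRNA was purified by 2 passes over oligo(dT) and made into stranded libraries. Adapters were cut with cutadapt 4.8, Clumpify took out duplicate reads, STAR 2.7.11b placed the remaining reads on hg38, and featureCounts 2.0.3 assigned them to protein-coding genes. The authors converted the counts to RPKM and deposited 2 tables of 20411 genes. The gene length and library total used are not given in the sources used here, and only its name ties the NB4 table to that line. A factor of length cancels in a fold change.

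Depth was recovered from the steps of the low RPKM values, with the lengths of a later GENCODE release for 20285 genes. Of values under 20 reads, 98.7 to 99.3% came out whole within 0.05 reads. Totals ranged from 5826988 to 22342366 reads on genes, and genes with few reads in the shallowest library are the least precise.

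Each line was fitted alone on log2(RPKM + 0.1), by limma 3.58.1 (eBayes with trend) in R 4.3.3, over genes whose mean reached 1 RPKM. Calls needed p below 0.01 and a change of 0.5 or more on the log2 scale, the thresholds stated in the methods. Differences between lines were tested in 1 model of 12 libraries at an adjusted p below 0.05. The smallest p that exact permutation of 3 against 3 libraries allows is 0.1. Tables were read in Python 3.11.15 with pandas 2.3.3 and numpy 2.4.6, and figures were drawn with matplotlib 3.10.9. The fits were tested on simulated data.

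The members, the other gene lists, the motifs and the alternatives were chosen with earlier results of these data known. Values per library are given for members called in both lines, those that differed between lines, and the highest and lowest change of each role group. Of the other lists, up to 3 called genes with the largest change per line are named. Alternatives were other pseudocounts, filters, scalings and cutoffs, eBayes with no trend and with robust estimation, limma-voom on recovered reads, the replicate number as a block, and leaving out each library. Of the markers of other cells, 1 is not reported here. Subtraction of the olfactory receptor level was chosen after seeing the data.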

Additional observations from a re-analysis of the deposited data

Results flagged for a closer look

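The effect of FP54 on CDT1 differed between the lines by 0.71 on the log2 scale (NB4 minus MOLM-13, SE 0.18, adjusted p = 0.0179 by limma's interaction). The change was -0.42 in MOLM-13 cells, with all 3 FP54 libraries below all 3 DMSO libraries, and 0.29 in NB4 cells, with DMSO replicate 2 inside the FP54 range. The effect on WDR76 differed by 0.77 (SE 0.23, adjusted p = 0.0405), from -0.87 in MOLM-13 to -0.11 in NB4 cells. Over the alternatives, the difference ranged from 0.53 to 0.86 for CDT1 and from 0.56 to 0.99 for WDR76. Both were above 0 in every alternative run. With median-ratio scaling neither passed an adjusted p of 0.05 (0.0779 and 0.0844), nor did WDR76 with no filter on low values (0.0562). With 1 library left out, WDR76 passed only without MOLM-13 DMSO replicate 2 or without MOLM-13 FP54 replicate 3. CDT1 did not pass without NB4 FP54 replicate 2 (adjusted p = 0.0506).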

How the results depend on the processing

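The count of genes called lower in MOLM-13 cells was 1 with no filter on low values, 16 with limma-voom, 2 at p below 0.05 and a change of 1 or more on the log2 scale, and 3 to 20 when 1 library was left out. In NB4 cells it was 27 with median-ratio scaling, 30 at an adjusted p below 0.05 with no minimum fold change, 0 at p below 0.05 and a change of 1 or more on the log2 scale, and 8 to 13 with 1 library left out. Genes called higher in NB4 cells numbered 2 with no minimum fold change and 0 to 1 with 1 library left out (1 without DMSO replicate 2). The NB4 median was -0.51 with median-ratio scaling, -0.26 with quantile normalization and -0.34 to -0.28 with 1 library left out. Median-ratio scaling moved the median of all NB4 genes from 0.07 to -0.13. Relative to all genes, the NB4 median was -0.38 in both and -0.23 with quantile normalization. The MOLM-13 median ranged from -0.59 to -0.38 with 1 library left out. For the counts under other filters, scalings and models and with 1 library left out, the share of all genes called is not given here.

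Members more negative in MOLM-13 than in NB4 cells numbered 0 with median-ratio scaling and 0 to 5 with 1 library left out (5 without MOLM-13 DMSO replicate 2, 0 without NB4 FP54 replicate 2). Those more negative in NB4 cells numbered 1 with median-ratio scaling and 0 to 1 with 1 library left out (1 without MOLM-13 FP54 replicate 1). The cause of these shifts was not tested. Correlations of same-numbered libraries were -0.26, -0.13 and -0.06 in MOLM-13 and -0.14, 0.07 and 0.12 in NB4 cells, so the numbers were not taken as pairs. Libraries with different numbers reached 0.59, 0.49 and 0.47 in MOLM-13 cells (DMSO 1 with FP54 3, 2 with 1 and 3 with 2), and no MOLM-13 library correlated best with its own number. With the replicate block 12 genes were called lower in MOLM-13 and 10 in NB4 cells, and 2 differed between the lines.

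The fitted change of members that were not called changed sign in a few settings. With 1 library left out it spanned, in MOLM-13 cells, GINS4 -0.35 to 0.14, PRIM1 -0.066 to 0.16, POLD3 -0.25 to 0.051, RFC2 -0.052 to 0.17, RFC5 -0.10 to 0.17, LIG1 -0.10 to 0.20, RPA3 -0.065 to 0.25, RRM1 -0.21 to 0.042, RRM2 -0.35 to 0.0095, TK1 -0.023 to 0.21, TIMELESS -0.51 to 0.0082, ASF1B -0.15 to 0.26, and in NB4 cells, GINS4 -0.023 to 0.076, PRIM2 -0.029 to 0.088, POLE -0.091 to 0.026, LIG1 -0.026 to 0.064, CHAF1B -0.024 to 0.059. With median-ratio scaling it was, in MOLM-13 cells, ASF1B -0.021, and in NB4 cells, GINS4 -0.17, PRIM1 -0.058, PRIM2 -0.15, LIG1 -0.19, CHAF1B -0.18, ASF1B -0.12. With quantile normalization it was, in NB4 cells, ORC6 0.016, GINS4 -0.11, PRIM2 -0.11, POLE 0.073, RFC2 0.13, RPA2 0.13, CHAF1B -0.092, ASF1B -0.036. No gene called in a line changed sign in that line in any setting run. The shallowest library, MOLM-13 FP54 replicate 2, limits the weakest genes.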
